A study of Mus musculus with 28 samples.

Results

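Hepatic glucose production and glucose handling were followed through 9 genes in the liver of mice with diet-induced fatty liver disease, treated or not with activators of the bile acid receptor FXR. The genes were Pcx, Pck1, Fbp1, G6pc, Slc37a4, Slc2a2, Tat, Foxo1 and Ppargc1a. They were the rows carrying those symbols among the 47719 genes of each of 10 tables of group comparisons, and all 9 were tested in all 10 tables.

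RNA was sequenced from the liver of 28 male C57BL/6 mice in 7 groups of 4, about 6 weeks old when feeding began. Lean controls were kept on low-fat food, 10% fat by calories, that held neither fructose nor cholesterol. The other 6 groups shared a fattening diet that drew 40% of its calories from fat and held, by weight, 22% fructose plus 2% cholesterol. They ate it for 26 weeks, a regimen used to bring on nonalcoholic steatohepatitis (NASH), fatty liver with inflammation and scarring. Daily oral dosing followed for 4 weeks. One group received obeticholic acid (OCA), a semisynthetic bile acid, at 25 mg/kg, and 3 groups received tropifexor, an FXR agonist that is not a bile acid, at 0.1, 0.3 and 0.9 mg/kg. The labels name the tropifexor groups low, mid and high without pairing them with the doses, so the doses were assigned in rising order. Each compound had its own vehicle group, recognised by the sample titles, and every drug effect below rests on them, because the vehicle samples list a drug as their treatment. The diet of the vehicle groups was read from the design text and from the names of the comparisons. No feeding time or dosing was recorded here for the lean controls. What is called the effect of the diet below compares a vehicle group with lean control, so diet and vehicle dosing cannot be told apart in it. The model is one of diet in intact males of a single strain, with no altered gene. The sources used here do not say whether the animals had fasted before their livers were taken.

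Each table gives 1 FPKM value per group of 4, a read count scaled to transcript length and library size, and none per animal. The depth behind a value and the spread of single animals are therefore unknown. Tables were scaled separately, so the same group carries slightly different FPKM values in different tables, and each value below is quoted from the table it is compared in. Fold changes, p-values and q-values (p adjusted for all genes tested) are the authors' Cuffdiff output in their deposited tables, and a gene was called at a q under 0.05. The smallest p the tables hold is 5e-05, which sets a smallest q for each table. Standard errors (SE) of log2 fold changes were computed here from those tables so as to match the deposited p-values. The match was set by 1 median factor per table, so for a single gene it is approximate, and it is looser for Ppargc1a. All 10 hepatocyte markers were tested in every table, led by Alb, at an FPKM of 55117 in lean control, while the 5 kidney tubule markers, from the other organ that releases glucose, were all under an FPKM of 1 and were not tested. In bulk tissue, fewer cells of a type and less RNA per cell cannot be told apart.

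The liver keeps blood glucose up during fasting by breaking down glycogen and by building glucose anew from lactate, glycerol and amino acids. Pyruvate carboxylase (Pcx) and cytosolic PEPCK (Pck1) carry pyruvate around the irreversible last step of glycolysis. Fructose-1,6-bisphosphatase (Fbp1) reverses a second such step, and glucose-6-phosphatase (G6pc) frees glucose from its phosphate. That last reaction happens inside the endoplasmic reticulum, which glucose-6-phosphate enters through the transporter Slc37a4, and the free sugar crosses the plasma membrane through GLUT2 (Slc2a2). Tyrosine aminotransferase (Tat) starts the breakdown of tyrosine, whose carbon can feed the pathway, and is a classic target of glucocorticoids. Foxo1 and Ppargc1a (PGC-1alpha) encode a transcription factor restrained by insulin and a coactivator raised by glucagon, and both act on G6pc and Pck1. FXR induces the repressor SHP (Nr0b2) in hepatocytes, and its activation is known to alter hepatic glucose metabolism.

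The upstream sequences of 3 genes are shown because their transcripts took different courses under the drugs: G6pc was lower in every drug group, Pck1 was higher in most of them, and Slc2a2 was higher at the upper tropifexor doses. The sequences are from RefSeq (GRCm38.p6, plus strand, which is the coding strand of all 3 genes) and cover the 250 bases before the RefSeq start site, ending where the GENCODE M21 gene model begins, which left out 155 bases for G6pc and 25 for Pck1. Capitals mark, on either strand, a cAMP response element half-site (TGACG), a short forkhead core (TGTTT) or a nuclear receptor half-site (AGGTCA).
G6pc, chr11:101367466-101367560: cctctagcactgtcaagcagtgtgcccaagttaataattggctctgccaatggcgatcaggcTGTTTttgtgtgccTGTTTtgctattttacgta
Pck1, chr2:173152823-173153047: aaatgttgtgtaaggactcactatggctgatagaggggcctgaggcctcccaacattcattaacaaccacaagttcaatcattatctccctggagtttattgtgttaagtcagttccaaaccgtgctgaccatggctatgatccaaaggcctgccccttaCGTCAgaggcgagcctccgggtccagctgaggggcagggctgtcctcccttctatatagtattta
Slc2a2, chr3:28697653-28697902: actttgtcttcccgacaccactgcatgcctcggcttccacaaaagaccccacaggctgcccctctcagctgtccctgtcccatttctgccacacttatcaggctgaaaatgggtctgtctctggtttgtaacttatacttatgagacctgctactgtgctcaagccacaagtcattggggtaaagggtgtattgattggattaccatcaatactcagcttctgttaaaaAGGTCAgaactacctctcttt
In its full 250 bases G6pc held 4 short forkhead cores, beginning 188, 174, 141 and 25 bases before the start, the last of them overlapping a TATA box at 29, and a reversed nuclear receptor half-site at 54. Pck1 held a reversed TGACG at 90 and Slc2a2 held AGGTCA at 21. Among 32851 mouse promoters of the same length, 46.4% held TGTTT, 17.8% TGACG, 14.0% AGGTCA and 12.4% TATAAA, on either strand and counted without regard to overlap, so each match is common. The inverted repeat to which FXR binds with its partner RXR (IR-1), searched as its exact consensus, was not found in the 250 bases of any of the 9 genes, and 2 of the 32851 promoters held it. These letters mark no proven binding site.

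G6pc, on chromosome 11 (GRCm38 101367561 to 101377903, plus strand), fell in all 4 drug groups and gave the widest spread of the 9 genes. In the authors' deposited tables its FPKM was 117 in the OCA vehicle group and 31.7 under OCA, a log2 fold change of -1.89 (SE 0.171, Cuffdiff q = 0.00268). Under low-dose tropifexor it was 12.5 against 78.4 in the vehicle group, a log2 fold change of -2.65 (SE 0.198, Cuffdiff q = 0.000968) in the deposited table. The mid dose gave 36.7 against 68.4 (log2 fold change -0.90, SE 0.137, Cuffdiff q = 0.000361) and the high dose 26.7 against 71.3 (-1.42, SE 0.129, Cuffdiff q = 0.000396), again from the deposited tables. The transcript thus stood at 27.1%, 15.9%, 53.6% and 37.4% of the vehicle level under OCA and the low, mid and high doses, and did not follow the order of the tropifexor doses. All 4 drug groups were also below lean control, with deposited log2 fold changes of -1.47, -2.93, -1.18 and -1.71 in the same order, all called by Cuffdiff.

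The diet itself left G6pc without a call, and the vehicle groups lay on opposite sides of lean control. The deposited FPKM was 109.5 in the OCA vehicle group against 82.6 in lean control (log2 fold change 0.41, SE 0.171, Cuffdiff q = 0.0945) and 68.6 in the tropifexor vehicle group against 83.0 (-0.28, SE 0.135, Cuffdiff q = 0.167). The difference between these diet effects was -0.68. Its 95% interval was -1.11 to -0.25 with the SE matched to the deposited p-values and -1.55 to 0.19 with the wider SE implied by the deposited test statistic, and neither gave a call after adjustment over all genes. Ordered from highest to lowest relative to lean control, the groups ran OCA vehicle, lean control, tropifexor vehicle, mid dose, OCA, high dose and low dose, with a 10.1-fold span. Neighbours in that order were separated beyond their 95% intervals except mid dose from OCA and OCA from the high dose. Those intervals used the matched SE and were not adjusted. The gaps between lean control and each vehicle group passed them although Cuffdiff called neither.

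Pck1, on chromosome 2 (173153048 to 173159273, plus strand), moved the other way in most drug groups. The diet lowered it: the deposited FPKM was 252.5 in the OCA vehicle group against 444.7 in lean control (log2 fold change -0.82, SE 0.198, Cuffdiff q = 0.000588), and 315.1 in the tropifexor vehicle group against 447.1 (-0.50, SE 0.153, Cuffdiff q = 0.0074). OCA raised it from 269.3 to 421.4 (log2 fold change 0.65, SE 0.199, Cuffdiff q = 0.034) in the deposited table. Low-dose tropifexor raised it from 359.4 to 705.5 (0.97, SE 0.268, Cuffdiff q = 0.00786) and the mid dose from 313.8 to 438.5 (0.48, SE 0.155, Cuffdiff q = 0.0105), by the same source. At the high dose the deposited values were 323.4 and, in vehicle, 326.7, a log2 fold change of -0.01 with an SE of 0.151. The log2 fold change of Pck1 was thus highest at the low dose, where G6pc was lowest, and the high-dose group was the only drug group called below lean control, at a deposited log2 fold change of -0.53.

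Fbp1, on chromosome 13 (62864753 to 62888282, minus strand), had the highest FPKM of the 9 genes in lean control. It fell at the low dose, from a deposited FPKM of 782.0 to 373.9 (log2 fold change -1.06, SE 0.223, Cuffdiff q = 0.000968), and at the high dose, from 711.2 to 462.0 (-0.62, SE 0.155, Cuffdiff q = 0.000396). At the mid dose the deposited values were 650.2 and, in vehicle, 683.4, and under OCA 776.9 and 709.8, neither called. The diet effects were -0.17 and -0.13 in the deposited tables and were not called. Fbp1 therefore shared with G6pc a lower level at the low dose than at the mid dose, but not the fall under OCA. Pcx, on chromosome 19 (4510472 to 4621752, plus strand; Lrfn4 lies within it on the other strand without sharing an exon), was called higher at the mid dose, 248.3 against 181.3 (log2 fold change 0.45, SE 0.148, Cuffdiff q = 0.0123), and at the high dose, 263.7 against 188.6 (0.48, SE 0.146, Cuffdiff q = 0.00632), in the deposited tables. OCA and the low dose gave 0.17 and -0.27 and no call.

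**Figure D1:**
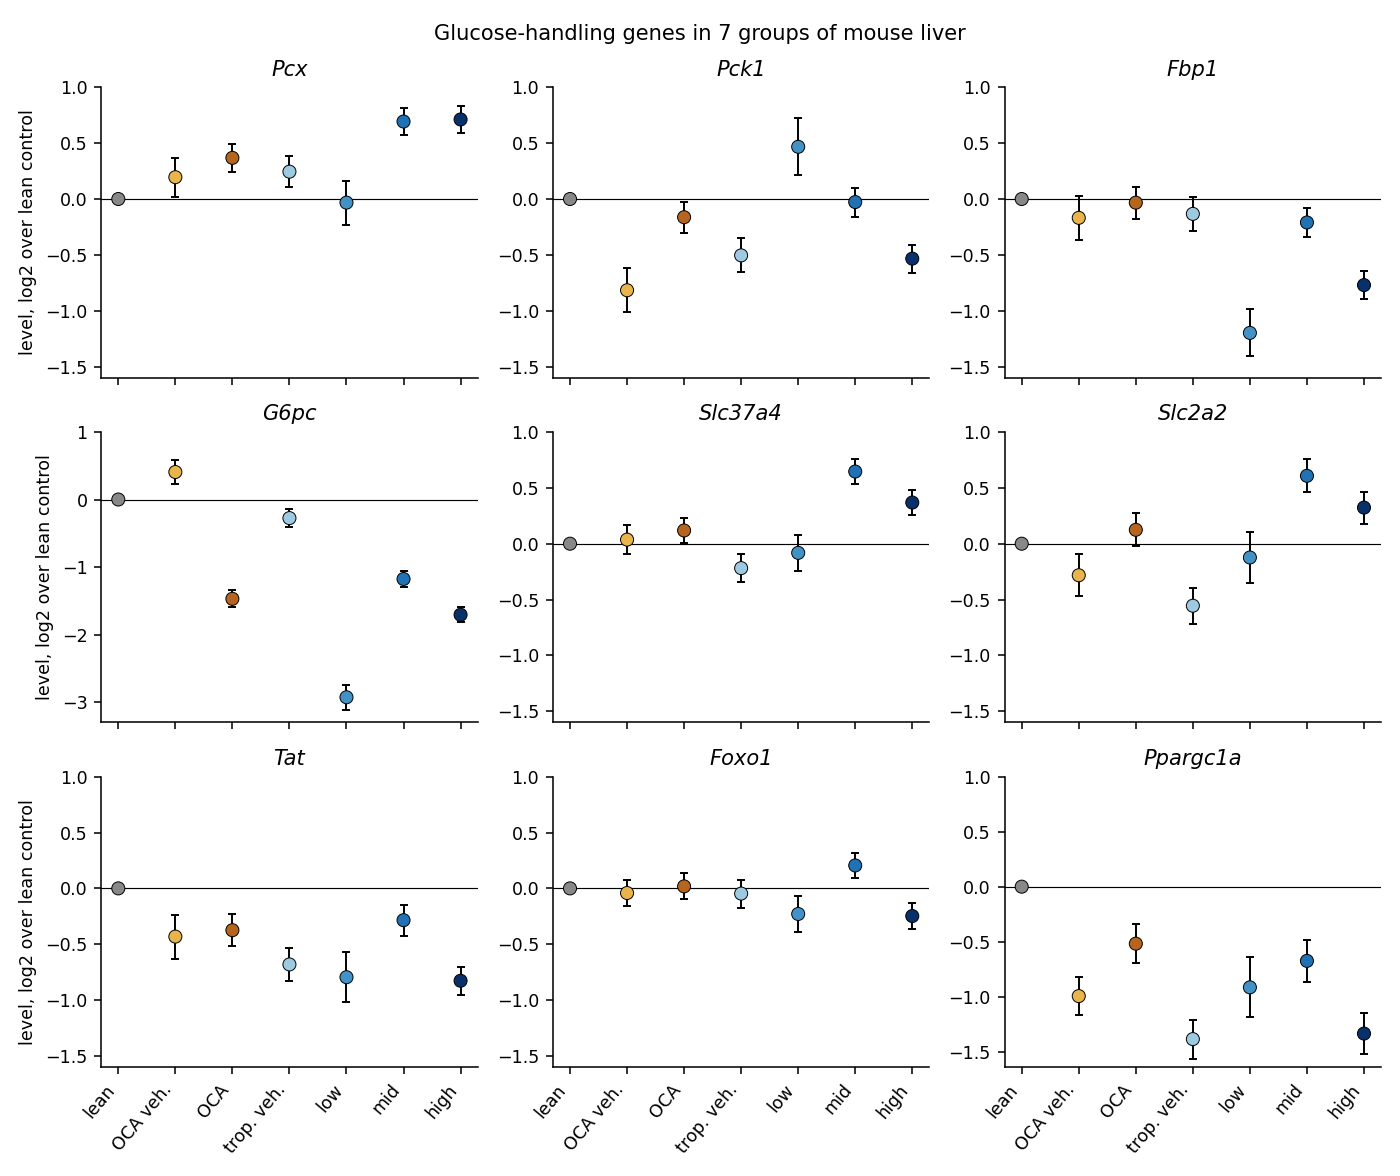
Level of each gene in each group as the deposited log2 fold change over lean control, which is set at 0 (y axis; the G6pc panel spans a longer range than the others); bars are 1 SE matched to the deposited p-values, and each point is the single deposited value of a group of 4 animals. G6pc ran from 0.41 in the OCA vehicle group to -2.93 at the low tropifexor dose, while Foxo1 stayed between -0.25 and 0.21.

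The transporters on either side of glucose-6-phosphatase rose at the upper tropifexor doses. Slc37a4, on chromosome 9 (44396852 to 44402968, plus strand; the deposited locus begins at 44398176), went from a deposited FPKM of 56.0 to 102.3 at the mid dose (log2 fold change 0.87, SE 0.130, Cuffdiff q = 0.000361) and from 58.3 to 88.5 at the high dose (0.60, SE 0.127, Cuffdiff q = 0.000396). OCA and the low dose gave deposited log2 fold changes of 0.08 and 0.14, not called. Slc2a2, on chromosome 3 (28697903 to 28731359, plus strand; a gene on the other strand, 1700112D23Rik, overlaps it without sharing an exon), followed the same course. The deposited locus of Slc2a2 ends at 28781108, past the end given here. Its deposited FPKM rose from 148.8 to 334.4 at the mid dose (log2 fold change 1.17, SE 0.172, Cuffdiff q = 0.000361) and from 154.8 to 287.9 at the high dose (0.90, SE 0.170, Cuffdiff q = 0.000396). OCA and the low dose gave 0.40 and 0.43 in the deposited tables, with q-values of 0.44 and 0.317. Slc2a2 was called lower on the diet in the tropifexor vehicle group (-0.56, Cuffdiff q = 0.00424) and not in the OCA vehicle group (-0.28), in the authors' deposited tables; the difference between those diet effects, -0.27 (95% interval -0.76 to 0.21 with the matched SE), was not called. So the mid and high doses carried, against their vehicle group, less transcript of the enzyme that frees glucose and more of the transporters for its substrate and its product. Against lean control, Slc37a4 was called higher at both doses (deposited log2 fold changes 0.65 and 0.37). Slc2a2 was called higher than lean control at the mid dose (0.61) and not at the high dose (0.32, Cuffdiff q = 0.0819).

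Tat, on chromosome 8 (109990437 to 109999803, plus strand), was highest in lean control. The deposited tables gave 227.1 against 364.1 for the tropifexor vehicle group (log2 fold change -0.68, SE 0.151, Cuffdiff q = 0.000507) and 268.6 against 362.3 for the OCA vehicle group, which was not called (-0.43, Cuffdiff q = 0.118). Among the drugs, the mid dose alone gave a call, 299.0 against 226.2 in the deposited table (0.40, SE 0.149, Cuffdiff q = 0.0261). OCA and the low and high doses gave deposited log2 fold changes of 0.05, -0.11 and -0.13.

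Of the regulators, Ppargc1a fell on the diet and Foxo1 was called in none of the 10 tables. Ppargc1a, on chromosome 5 (51454250 to 51567726, minus strand), had deposited FPKM values of 1.70 in the OCA vehicle group against 3.39 in lean control (log2 fold change -0.99, SE 0.170, Cuffdiff q = 0.000588) and 1.30 in the tropifexor vehicle group against 3.41 (-1.39, SE 0.177, Cuffdiff q = 0.000507). The mid dose raised it from 1.30 to 2.13 (0.72, SE 0.217, Cuffdiff q = 0.000681) in the deposited table; OCA, the low dose and the high dose gave 0.47, 0.47 and 0.07 without a call. All 4 drug groups stayed below lean control, by deposited log2 fold changes of -0.52, -0.92, -0.67 and -1.34, each called by Cuffdiff. Foxo1, on chromosome 3 (52268336 to 52353221, plus strand), lay between a deposited FPKM of 3.54 and 5.03 in every group, with log2 fold changes from -0.25 to 0.26. Its exons overlap those of Gm20402 on the other strand, and its value is uncertain, because the strand setting used in counting was not given in the sources used here. These are transcript levels, and the activity of Foxo1, which depends on where the protein sits in the cell, was not measured.

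**Figure D2:**
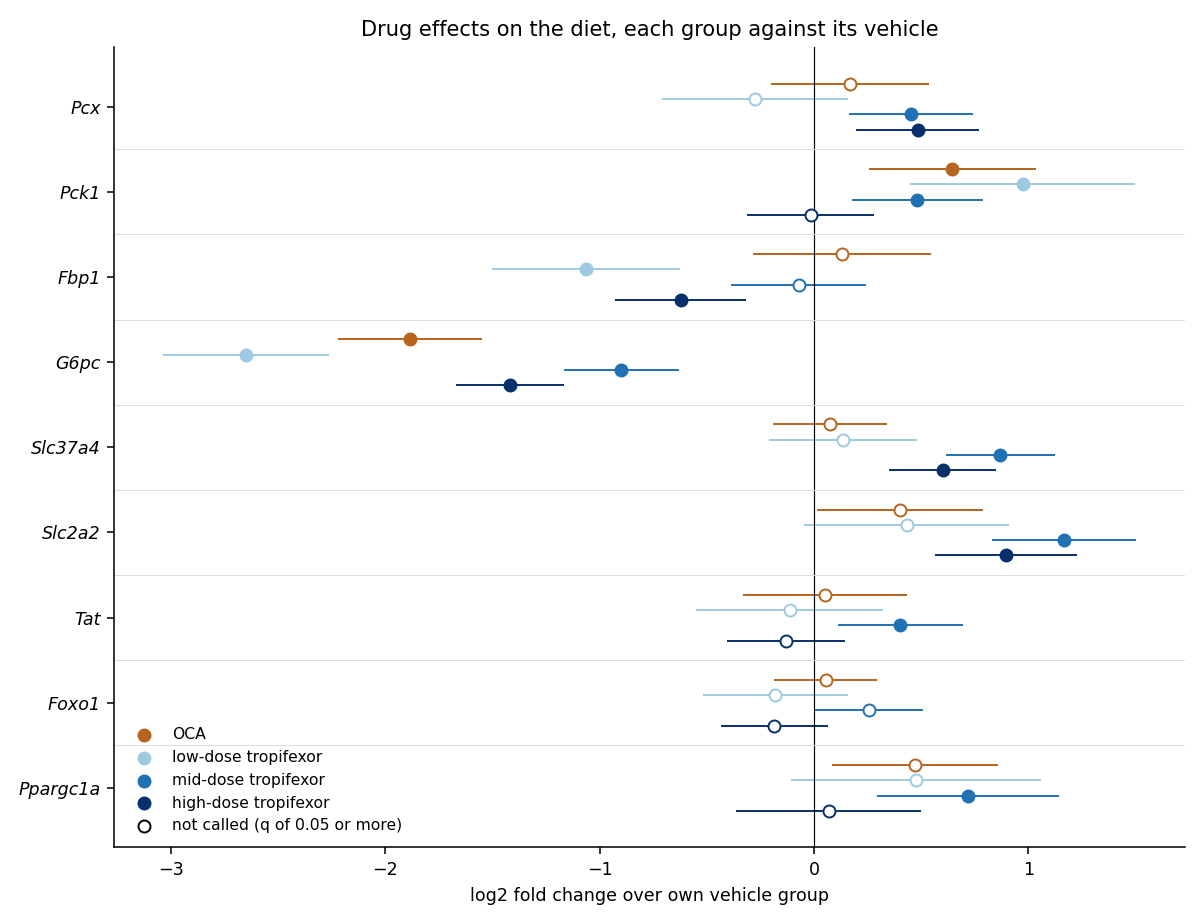
Deposited log2 fold change of each gene over its own vehicle group (x axis) for OCA and the 3 tropifexor groups; bars are 95% intervals from the SE matched to the deposited p-values, and open circles mark values that were not called. G6pc lies left of 0 in all 4 drug groups, Pck1 right of 0 in 3 of them, and Slc2a2 and Slc37a4 farthest right at the mid dose.

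Counted by comparison, the diet lowered 2 of the 9 genes when the OCA vehicle group was set against lean control, where 18.0% of all genes tested were called and 6.56% were called lower (11.4% higher). In the tropifexor vehicle group it lowered 4, where 20.6% of all genes were called, 8.53% lower and 12.1% higher. Neither vehicle group had a member called higher. Hepatocyte markers were lower beside them: 1 and 4 of the 10 were called lower on the diet with OCA vehicle and tropifexor vehicle and none higher, with median log2 fold changes of -0.41 and -0.48. The summed FPKM of these markers was 82619 against 111505 in lean control and 78462 against 112087, none was at 0, and their part in the diet falls of Pck1, Slc2a2, Tat and Ppargc1a was not tested. OCA against its vehicle called 2 genes, Pck1 higher and G6pc lower, where 4.04% of all genes tested were called, 1.81% higher and 2.23% lower. The low dose called 1 higher and 2 lower, where 11.2% of all genes were called, 6.03% higher and 5.2% lower. The mid dose called 6 higher and 1 lower, beside 27.5% of all genes, 11.8% higher and 15.7% lower. The high dose called 3 higher and 2 lower, beside 25.4%, of which 9.93% of genes were higher and 15.5% lower. Against lean control, 3 genes were called under OCA, 4 at the low dose, 5 at the mid dose and 7 at the high dose, beside 16.8%, 23.8%, 23.1% and 27.3% of all genes tested. The diet and drug effects share the vehicle groups, so they are not independent. The median log2 fold change of the 9 genes against vehicle was 0.13 under OCA, -0.11, 0.45 and -0.01 at the low, mid and high doses, beside medians of all genes tested between -0.05 and 0.00. The medians hide opposite movements: no drug group had all its called genes on 1 side of its vehicle. Precision was lowest at the low dose, with a median SE over the 9 genes of 0.222 against vehicle, beside 0.195 for OCA and 0.149 and 0.146 for the mid and high doses. Over all genes the median SE was wider, 0.307 at the low dose, 0.221 for OCA and 0.231 and 0.232 at the mid and high doses. The shares of all genes called therefore come from less precise values than those of the 9 genes. Over all 9 genes, few groups that stood next to each other in level could be separated: apart from G6pc, 3 of 48 such gaps passed their 95% interval. These were mid from high dose for Fbp1, lean control from the mid dose for Tat and lean control from OCA for Ppargc1a. The intervals used the matched SE and were not adjusted for the number of gaps, so some can pass with no true difference. Cuffdiff itself did not call Tat at the mid dose against lean control (q = 0.143).

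**Figure D3:**
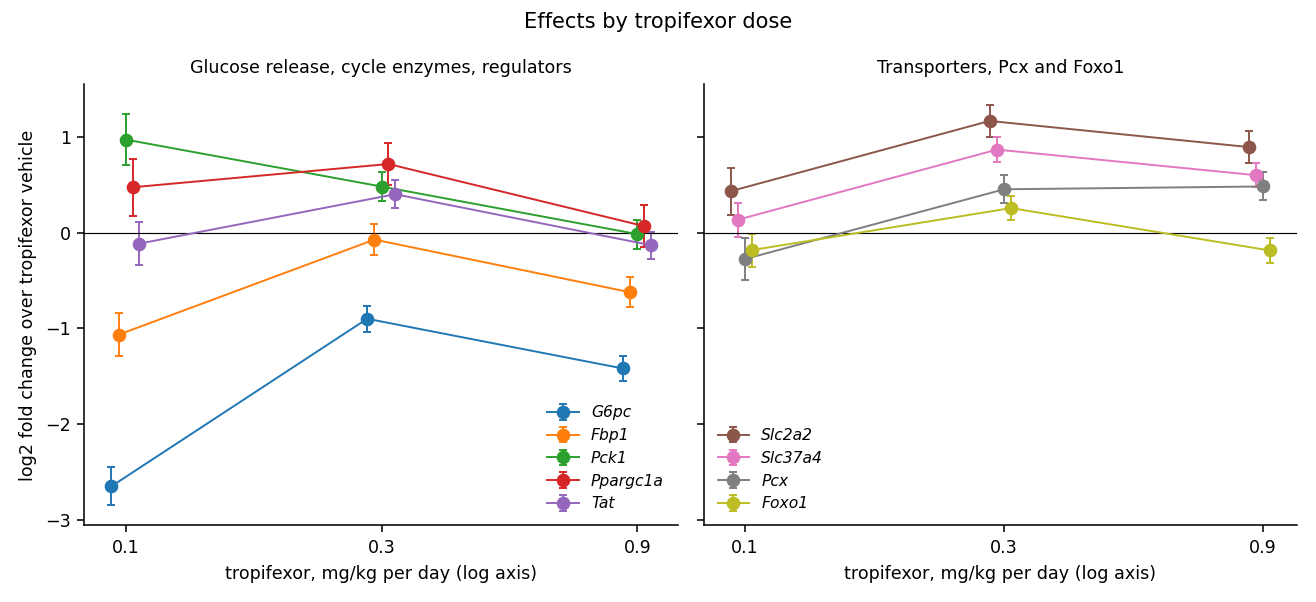
Deposited log2 fold change over the tropifexor vehicle group (y axis) against the dose assigned to each group (x axis, log scale, mg/kg per day), points shifted slightly sideways for legibility; bars are 1 SE matched to the deposited p-values. For G6pc, Fbp1 and Pck1 the low dose gave the value farthest from 0, and for Slc2a2 and Slc37a4 the mid dose did.

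Whether effects differed between doses or compounds was tested by subtracting log2 fold changes, with p-values adjusted over all genes, for 7 pairs of effects. None of the 9 genes was called in any pair with the SE implied by the deposited test statistic, where 0.0985% of all genes were called between the 2 diet effects, 1.69%, 1.48% and 0.418% for the high, mid and low dose against OCA, and 0.423%, 0.319% and 0.278% for mid against low, high against mid and high against low dose. The nearest was G6pc at the mid against the low dose, a difference of 1.75 (95% interval 0.79 to 2.71). That implied SE is about 2.03 to 2.05 times wider than the deposited p-values assume. With the SE matched to those p-values, 11 of the 63 differences were called, where 0.381%, 11.4%, 12.0%, 5.24%, 10.3%, 2.32% and 5.63% of all genes were, in the same order of pairs. The mid dose left G6pc higher than the low dose by 1.75 (95% interval 1.28 to 2.22) and Fbp1 by 0.99 (0.45 to 1.53), and the high dose left G6pc higher than the low dose by 1.23 (0.77 to 1.69) and Pck1 lower by 0.99 on the log2 scale (difference -0.99, -1.59 to -0.38). Slc37a4 also responded more at the mid than at the low dose, by 0.73 (0.30 to 1.16). No gene was called between the high and mid doses under either SE after adjustment, although the matched interval, which is not adjusted, lay below 0 for 6 of the 9: Pck1, Fbp1, G6pc, Tat, Foxo1 and Ppargc1a. For G6pc that difference was -0.52, with a matched interval of -0.89 to -0.15. The order of the doses rests on their assignment in rising order, and the effects share 1 vehicle group.

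Between compounds, whose doses cannot be matched, 6 differences were called with the matched SE and none with the implied SE. Relative to OCA, the mid dose left G6pc higher by 0.99 (95% interval 0.56 to 1.42), Slc37a4 by 0.79 (0.42 to 1.16) and Slc2a2 by 0.77 (0.25 to 1.28). The low dose left Fbp1 lower than OCA did (difference -1.19, -1.80 to -0.59), as did the high dose (-0.75, -1.27 to -0.24), which also left Slc37a4 higher (0.53, 0.16 to 0.89). For G6pc at the low dose against OCA the difference was -0.76 with a matched interval of -1.28 to -0.25 and no call. Pck1 at the low dose against OCA differed by 0.33, with an interval of -0.33 to 0.98.

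A wider set of 115 genes of glucose metabolism, in 8 lists, was read with the same deposited test. The diet raised 8 and lowered 27 of 114 tested with OCA vehicle, 30.7% beside 18.0% of all genes, and raised 11 and lowered 34 of 114 with tropifexor vehicle, 39.5% beside 20.6%. OCA called 4 higher and 6 lower of 114, 8.77% beside 4.04% of all genes, and the low dose 11 and 17 of 115, 24.3% beside 11.2%. The mid dose called 24 and 19 of 114, 37.7% beside 27.5%, and the high dose 23 and 28 of 114, 44.7% beside 25.4%. The shares called in this set were thus above those of all genes in each of these tables, a description with no test, since the lists were chosen with earlier results known. The set was not matched to all genes in expression or precision. Among the other enzymes of gluconeogenesis, including those it shares with glycolysis, 1 of the 12 tested was called at the low dose and 2 of 11 at each of the upper doses. Those counts stood beside 11.2%, 27.5% and 25.4% of all genes, so the higher shares of the wider set were not seen in this list. Of the 11 tested, none was called under OCA or with OCA vehicle, and 1 was with tropifexor vehicle. Mdh1, cytosolic malate dehydrogenase, rose at the mid and high doses by 0.92 in both deposited tables, and Pck2, the mitochondrial PEPCK, rose at the low dose (0.62) and fell at the mid and high doses (-0.81 and -0.80) at FPKM values of 1.14 to 3.52. Enzymes shared with glycolysis such as Gapdh, Pgk1 and Pgam1 have near-identical pseudogenes that can take their reads, and their low listed values are uncertain.

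Genes that bring substrates into the pathway moved in both directions. Gpd1 and Gpd2, the cytosolic and mitochondrial glycerol-3-phosphate dehydrogenases, fell in all 4 drug groups: the deposited log2 fold changes were -0.84, -1.52, -0.98 and -1.46 for Gpd1 and -0.66, -1.82, -1.16 and -1.69 for Gpd2, in the order OCA, low, mid and high. Aqp9, the glycerol channel, fell under the 3 tropifexor doses, by deposited values of -0.88, -0.58 and -0.89. Hal, which degrades histidine, rose in all 4 groups, by 0.79, 0.95, 2.13 and 1.64 in the deposited tables, and Gls2, liver glutaminase, rose under OCA and at the mid and high doses (0.64, 1.13 and 0.67). Both had fallen on the diet in both vehicle groups. Of the list's 19 genes, all tested, 3 rose and 2 fell under OCA, 1 and 6 at the low dose, 5 and 6 at the mid dose and 4 and 8 at the high dose. Beside them, 1.81% of all genes tested rose and 2.23% fell under OCA, 6.03% and 5.2% at the low dose, 11.8% and 15.7% at the mid dose and 9.93% and 15.5% at the high dose. On the diet, 11.4% of all genes rose and 6.56% fell with OCA vehicle, and 12.1% and 8.53% with tropifexor vehicle. The list counts that follow are to be read against these shares.

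The genes of glucose phosphorylation, glycolysis and pyruvate oxidation, of which 15 were tested, include forms of hepatocytes and of other cells. Pklr, the liver pyruvate kinase, fell at the low and high doses, to a deposited FPKM of 38.8 from 158.3 and of 84.8 from 144.0, and was 131.0 against 138.4 at the mid dose. Pkm, Hk2 and Hk3, forms common outside hepatocytes, rose on the diet by deposited log2 fold changes of 1.30, 2.23 and 1.30 in the OCA vehicle group and of 1.25, 1.94 and 1.07 in the tropifexor vehicle group. All 3 fell at the mid dose (-1.43, -1.69 and -1.44) and the high dose (-1.06, -1.46 and -1.05) in the deposited tables. Under OCA, Pkm and Hk3 fell (-0.48 and -0.91) and Hk2 was at -0.68 without a call, and none of the 3 was called at the low dose (-0.01, -0.43 and -0.24 for Pkm, Hk2 and Hk3), by the same source. Macrophage markers moved alongside them: 7 of 10 rose and 1 fell on the diet in both vehicle groups. None rose and 4 fell under OCA, 1 rose and 1 fell at the low dose, and none rose and 8 and 6 fell at the mid and high doses. Their summed FPKM was 129.9 against 266.1 in vehicle at the mid dose and 169.8 against 276.9 at the high dose. Other cell types moved too. Of 8 stellate cell and myofibroblast markers, 2 and 3 rose on the diet. Of the same 8, 4 fell at the low dose and 7 at each upper dose. Of lymphocyte and neutrophil markers, 5 of 8 and 4 of 7 tested rose on the diet. At the mid and high doses 5 of 7 and 4 of 8 tested fell. Endothelial markers went lower on the diet, 3 of 7 in both vehicle groups. No macrophage marker was at 0, and the part of these cell types in the result was not tested.

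Of 15 genes of glycogen storage and breakdown, the diet raised 1 and lowered 3 with OCA vehicle, and raised 1 and lowered 5 with tropifexor vehicle. Of the same 15, none rose and 2 fell under OCA, and 1 rose and 2 fell at the low dose. At the mid and high doses 2 and 5 rose and none fell. Ppp1r3c, a subunit that directs protein phosphatase 1 to glycogen, fell from a deposited FPKM of 33.6 to 19.4 and from 33.7 to 11.2 on the diet. Ppp1r3b, the main liver subunit of this kind, was called lower under OCA (-0.61) and higher at the mid and high doses (0.62 and 0.76) in the deposited tables. Its diet value was -0.67 in the tropifexor vehicle group, called, and 0.31 in the OCA vehicle group, not called. The fructose and carbohydrate-sensing list had 11 genes tested, of which none was called under OCA, 1 rose and 2 fell at the low dose, 2 rose and 2 fell at the mid dose, and 2 rose and 3 fell at the high dose. Tkfc, the kinase that takes glyceraldehyde from fructose into glycolysis, fell in the 3 tropifexor groups (-1.48, -0.53 and -0.75 in the deposited tables).

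The transcription factors and coactivators of glucose production included several that rose more than 1 log2 unit under tropifexor. Nr0b2, the FXR-induced repressor SHP, rose in all 4 drug groups, by deposited log2 fold changes of 0.75 under OCA and 1.87, 2.55 and 2.63 at the low, mid and high doses. Ppargc1b, a coactivator related to Ppargc1a, rose at every tropifexor dose, to deposited FPKM values of 5.06, 5.68 and 7.26 from 1.41, 1.24 and 1.29, and was at a log2 fold change of -0.02 under OCA. Sik1, a kinase that holds the CREB coactivators out of the nucleus, rose by 2.56, 1.35 and 2.92 at the low, mid and high doses. Foxo3, a relative of Foxo1, rose by 0.61, 1.23 and 0.74, and Nr1h4, which encodes FXR itself, fell by deposited values of -1.49, -1.27 and -1.70. Of the 21 genes in this list, all tested, 1 rose and none fell under OCA, 5 rose and 2 fell at the low dose, 8 and 3 at the mid dose and 6 and 3 at the high dose, beside 4.04%, 11.2%, 27.5% and 25.4% of all genes called in those tables. The single call under OCA, Nr0b2, is a share near that of all genes.

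Trib3, which can restrain AKT, was the gene called most often in the hormone receptor and insulin signalling list. Its deposited log2 fold changes were 2.26, 1.06 and 1.82 at the low, mid and high tropifexor doses and 0.03 under OCA, after falls on the diet of -0.80 and -0.95. None of the 14 genes of that list was called under OCA, 1 was at the low dose, 4 at the mid dose and 5 at the high dose, beside 4.04%, 11.2%, 27.5% and 25.4% of all genes; the counts at the low and mid doses are near those shares. In the list of genes that FOXO1 raises and insulin lowers, Igfbp1, which encodes a binding protein of insulin-like growth factors, took opposite directions at different doses. It was 37.9 against 18.9 at the low dose (deposited values, called), 3.77 against 16.6 at the mid dose (-2.14) and 3.71 against 17.2 at the high dose (-2.21). Of the 11 genes tested in that list, none was called under OCA, 1 rose and 2 fell at the low dose, 1 and 1 at the mid dose, and none rose and 4 fell at the high dose.

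**Figure D4:**
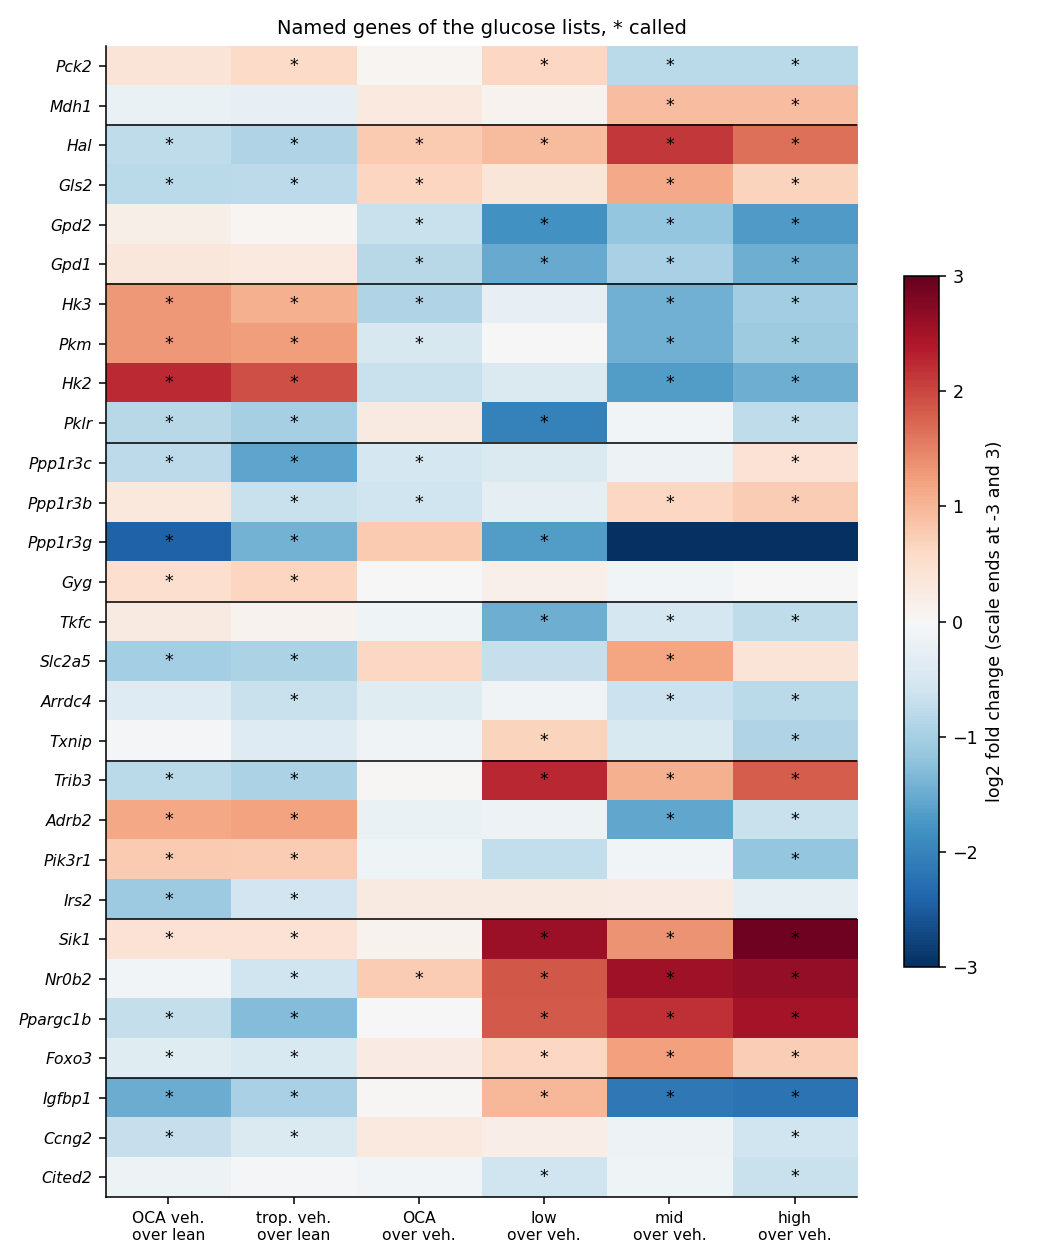
Deposited log2 fold changes (colour, ending at -3 and 3) of the named genes of the 8 glucose lists (rows, lists parted by lines) in the diet and drug comparisons (columns); an asterisk marks a call. The tropifexor columns share strong increases of Nr0b2, Ppargc1b, Sik1 and Trib3 and decreases of Gpd1 and Gpd2, while Igfbp1 changes colour between the low and mid doses; Ppp1r3g, at a deposited FPKM of 0.701 and 0.728 in vehicle, was not called at the mid and high doses despite its dark cells.

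Markers of liver zonation were read beside these genes. Gluconeogenesis is most active in hepatocytes around the portal vein and glycolysis in those around the central vein. Of 8 periportal markers, which include Pck1 and, from the lists above, Hal, Gls2 and Sds, the diet lowered 4 with OCA vehicle and 6 with tropifexor vehicle and raised none. In those comparisons 6.56% and 8.53% of all genes tested were called lower. Under OCA 5 of them rose, at the low dose 2, at the mid dose 7 and at the high dose 5, and none fell against vehicle. Their summed FPKM against vehicle was 4028 from 2723 under OCA, 3680 from 2913 at the low dose, 5927 from 2545 at the mid dose and 4464 from 2649 at the high dose. Part of this count comes from genes already described, so the 4 periportal markers that no other list holds (Ass1, Cps1, Cyp2f2 and Arg1) were also counted alone, a choice made after seeing the data. Of these 4, the diet lowered 1 with OCA vehicle and 3 with tropifexor vehicle, 1 rose under OCA, none was called at the low dose, 4 rose at the mid dose and 3 at the high dose. Their summed FPKM against vehicle was 2870 from 2014 under OCA, 2356 from 2066 at the low dose, 4422 from 1805 at the mid dose and 3315 from 1879 at the high dose. Of 8 pericentral markers, 6 fell at each tropifexor dose and none was called under OCA; their summed FPKM was 1459 against 4585 at the low dose, 1568 against 4003 at the mid dose, 1172 against 4166 at the high dose and 3541 against 4630 under OCA. No marker of either list was at 0, and their part in the changes of Pck1, Fbp1, G6pc and Pklr was not tested. Of the 10 hepatocyte markers, none rose in any drug group, none fell under OCA, 2 fell at the low dose, 2 at the mid dose and 4 at the high dose, with summed FPKM values of 78131 to 99222 across drug and vehicle groups.

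Among 2442 genes that were compared, some followed the members closely over the 7 groups; with 7 points that share lean control as reference and libraries, the correlations are descriptions only. Slc25a45, a mitochondrial carrier, and Ldhd, a D-lactate dehydrogenase, followed G6pc with Pearson r of 0.975 and 0.957, and both were lowest at the low dose, at -1.54 and -1.27 relative to lean control on the log2 scale. Mup17, which followed G6pc at 0.956, belongs to a family of near-identical genes and its value is uncertain. Rgn, encoding regucalcin, followed Fbp1 at 0.984 with -1.22 at the low dose, -0.28 at the mid dose and -0.87 at the high dose. Slc10a5 followed Slc2a2 at 0.982 and Cep85l followed Ppargc1a at 0.957. The 3 genes most like Pck1 were RP23-366O14.3, Tff3 and Lpin2, a phosphatidate phosphatase, at 0.905, 0.883 and 0.877. An r over 0.9 was shared by 44 genes for G6pc, 82 for Fbp1, 76 for Slc2a2, 13 for Ppargc1a and 1 for Pck1, so the genes named are examples. For Pcx, Slc37a4, Tat and Foxo1, whose range over the groups was under 1 on the log2 scale, no search was made.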

How the data were processed

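Stranded poly(A) libraries (TruSeq Stranded mRNA kit, Trizol extraction, per the labels' protocols) came from 28 livers. The submitters' processing notes name bcl2fastq, STAR 2.5.1b, Cufflinks 2.2.1, Cuffnorm, Cuffdiff and GRCm38, without roles, and the strand setting of counting was not given in the sources used here. The FPKM values are the authors' deposited group values, 1 per group of 4 in each of 10 tables, per the file headers. The log2 fold changes and test statistics are scores that the authors deposited, and the p-values and q-values are the authors' deposited Cuffdiff output; some fold changes of genes near an FPKM of 0 pass 100 in size and were not used. Between 15208 and 16144 of 47719 genes were tested in a table. The labels number the replicates and do not say more of their origin, so the p-values speak for these samples only. They come from the authors' Cuffdiff model, and without values per animal it cannot be checked what spread they reflect.

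Computed here (Python 3.11.15, pandas 2.3.3, scipy 1.17.1, matplotlib 3.10.9) were the implied SE, the log2 fold change divided by the test statistic; the matched SE, the implied one divided by the table's median ratio of the normal z of the deposited p to the statistic (2.03 to 2.05); and differences between effects, with variances added, a normal p and Benjamini-Hochberg adjustment over all genes usable in both tables. This difference test was run on simulated effects whose errors were drawn as independent normal values of the matched SE. The simulation therefore cannot show which of the 2 SE is right, and it did not model a shared vehicle group. Effects that share a vehicle or control group make the summed variance conservative. Group identities were checked: the same group in different tables differed, after a constant shift of up to 0.194, by at most 0.000762 (log2, median over genes), against at least 0.0740 for different groups. Promoters were taken from RefSeq tables for all 9 genes, and gene positions from GENCODE M21.

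Genes of the lists were named by a rule: up to 4 per list, those called in the most of the 6 comparisons of vehicle with lean control and drug with vehicle, ties by the largest change. Aqp9, Nr1h4, Atf4 and the pseudogene-bearing enzymes were named after their values were seen. The genes most like a member were the 3 with the highest Pearson r, sought for members with a range of at least 1 (log2). The 9 genes and all lists were chosen with earlier results of these data known. Alternatives tried were q thresholds of 0.01 and 0.1, a minimum FPKM of 1, a minimum log2 change of 0.5, a pseudocount of 1, centring on the median gene and the matched SE.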

Additional observations from a re-analysis of the deposited data

How the results depend on the processing

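Centring on the median gene kept the direction of every called member in the 10 tables. It could hardly do otherwise, since the medians of all genes lay between -0.05 and 0.02. A minimum FPKM of 1 left out no member, and each count of called members stayed within 1.5 times. A q under 0.1 also kept each count within 1.5 times. It raised the count from 2 to 3 for OCA vehicle over lean control, where G6pc was then called higher. At a q under 0.01 the members called went from 2 to 1 for OCA over vehicle, from 7 to 4 for the mid dose over vehicle and from 3 to 1 for OCA over lean control. With a log2 change of at least 0.5 also required, the mid dose called 4. The matched SE raised the called differences between effects from 0 to 2 for high dose minus OCA, 3 for mid dose minus OCA, 1 for low dose minus OCA, 3 for mid minus low dose and 2 for high minus low dose; this follows from the smaller SE. Of 90 member fold changes, 1 changed sign on centring, Pck1 at the high dose over vehicle, from -0.01 to 0.0333, and none with a pseudocount of 1. The count of other glucose genes called stayed within 1.5 times at a q under 0.01 in all 10 tables. No paired analysis was possible because the tables hold 1 value per group, and for the same reason leaving out each replicate was not run. Depth is unknown, so how far it limits Foxo1 and Ppargc1a, the members with the lowest FPKM, cannot be given.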

Other observations

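Of 10 genes of fasting and fatty acid oxidation, 1 rose and 2 fell under OCA, 2 and 4 at the low dose, 3 and 4 at the mid dose, and 3 and 6 at the high dose, beside 4.04%, 11.2%, 27.5% and 25.4% of all genes called in those tables. Fgf21, a hormone that the liver releases in fasting and under amino acid stress, rose in the deposited tables by log2 fold changes of 3.24, 1.94 and 2.79 at the low, mid and high tropifexor doses and was at 0.09 under OCA. Atf4, a transcription factor of amino acid stress that can raise Fgf21 and Trib3, rose by 0.67, 0.33 and 0.80 at the same doses. Its part in the rises of Fgf21 and Trib3 was not tested. Cyp4a14, a fatty acid hydroxylase, fell by deposited values of -0.87 under OCA and by -0.73, -3.70 and -3.68 at the tropifexor doses. Plin5, a lipid droplet protein, rose by 0.60, 1.01 and 0.62.

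Of 9 glucocorticoid-induced genes, the diet raised 3 and lowered 1 with OCA vehicle, where 18.0% of all genes were called, and raised 3 and lowered 2 with tropifexor vehicle, where 20.6% were. Under OCA 1 rose and 2 fell, at the low dose 1 rose and 1 fell, at the mid dose none rose and 6 fell, and at the high dose none rose and 5 fell, beside 4.04%, 11.2%, 27.5% and 25.4% of all genes. Tat, which is not in that list, was called higher at the mid dose. The metallothioneins Mt1 and Mt2 gave deposited log2 fold changes of -3.18 and -3.76 at the mid dose and -3.74 and -4.21 at the high dose, and -0.57 and -0.52 at the low dose, where Mt2 was not called. Cdkn1a, a cell cycle inhibitor, rose on the diet by 1.73 and 2.16 and fell by -2.07 at the mid dose and -1.44 at the high dose. Of 15 circadian clock genes, the diet raised 1 and lowered 6 with OCA vehicle and raised none and lowered 7 with tropifexor vehicle. In those comparisons 18.0% and 20.6% of all genes were called. Of the 14 tested against vehicle, 2 rose and 1 fell under OCA, 3 and 1 at the low dose, 6 and 3 at the mid dose and 3 and 4 at the high dose, beside the same shares of all genes. Among them, Cry1 rose at the low, mid and high doses by 0.86, 1.35 and 0.75, and Nfil3 fell by -1.02, -1.53 and -2.31. The hour of tissue collection was not given in the sources used here.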
